A study of Danio rerio with 3 samples.

Results

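Solute carriers were described in single-cell RNA sequencing of 3 zebrafish livers, 1 liver per group, as the rows whose name starts with slc followed by a digit and that were listed in all 3 libraries. There were 176 such members, of 252 rows with such a name in any library and of 11233 rows shared by the 3 libraries. The members belong to 40 numbered families, and a further 37 slc rows were listed in 2 libraries and 39 in 1 library only.

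Solute carriers are membrane proteins that move amino acids, sugars, nucleotides, fatty acids, metals, inorganic ions and organic ions across the plasma membrane and the membranes of organelles. A hepatocyte uses them to take up and release glucose, amino acids and bile acids, to detoxify organic cations, and to exchange fuel and nucleotides with its mitochondria. Macrophages of the liver use others, above all those that handle the iron and heme of worn-out red blood cells.

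The livers were taken at 6 months post fertilization from male fish. The HepABC HCC liver had hepatocellular carcinoma (HCC) and carried Tg(fabp10a-pt-beta-catenin), which makes activated Xenopus β-catenin in hepatocytes from the fabp10a promoter, and this fish had no larval treatment. The CreLox HCC liver also had HCC and carried Tg(fabp10a-CreERT2;fabp10a-flox-beta-catenin), in which Cre recombinase switches on the same β-catenin, and was treated with 10 µM 4-hydroxytamoxifen at 3 to 6 days of age. The no HCC liver carried Tg(fabp10a-flox-beta-catenin) without Cre, had the same 4-hydroxytamoxifen treatment and no HCC. The study's methods name a Wnt reporter transgene for the HepABC fish. Line, larval treatment and the reference used for counting therefore differed together between HepABC HCC and the other libraries, and their parts cannot be told apart. Every group was 1 liver and 1 library, so no test between groups was possible, and each ratio compares libraries and not conditions.

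The HepABC HCC library (HepABC beside values below) held 2866 cells, the CreLox HCC library (CreLox) 2112 cells and the no HCC library 1077 cells. Their unique molecular identifiers (UMIs, each counting 1 captured RNA molecule) summed to 47680774 in HepABC, 9066031 in CreLox and 5404507 in no HCC. Depth per cell differed strongly, so levels were taken from deep cells, those with 10000 or more UMIs, which numbered 1938 in HepABC, 186 in CreLox and 213 in no HCC. A level is given as CPM, the UMIs of a gene per 1000000 UMIs of all deep cells of the library. Since the 3′ chemistry counts transcript ends, levels were not divided by transcript length. All 8 hepatocyte markers were abundant in deep cells, and their sum was 109914 CPM in HepABC and 120029 in CreLox, against 139968 in no HCC. Macrophage markers summed to 41.1 CPM in HepABC, 108 in CreLox and 42.2 in no HCC and endothelial markers to 4.64 CPM in HepABC and 17.5 in CreLox, against 2.83 in no HCC, with tmem88a at 0.597 CPM in HepABC, 5.48 in CreLox and 0 in no HCC. Hemoglobin hbba1 was at 0.115 CPM in HepABC and 0.609 in CreLox, against 464 in no HCC, and the cholangiocyte-listed lgals2b at 1010 CPM in HepABC, 482 in CreLox and 10.8 in no HCC. Pairs of libraries shared 1 to 8 cell barcodes. All intervals are exact 95% intervals of counting error and hold no variation between fish.

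The members together took 10202 CPM in HepABC and 9727 CPM in CreLox, against 8922 CPM in no HCC. A large share came from slc25a5, an ADP/ATP translocase that exports ATP from mitochondria, with 6052 CPM (6029 to 6075) in HepABC, 5103 CPM (5041 to 5167) in CreLox and 3996 CPM (3930 to 4062) in no HCC. Its share of the members' UMIs was 59.3% in HepABC and 52.5% in CreLox, against 44.8% in no HCC. Without it the order of the libraries turned round, at 4151 CPM in HepABC and 4624 in CreLox, against 4926 in no HCC. These totals and the family sums below are plain CPM, and their order depends on the scaling. The TMM factors used further below lower every ratio over no HCC. Of the members' UMIs the 15 most abundant members held 86.5% in HepABC, 84.8% in CreLox and 84.9% in no HCC, and only 11 members averaged 100 CPM or more over the libraries. The next was slc38a4, a sodium-coupled neutral amino acid transporter of the liver, with 708 CPM in HepABC and 856 in CreLox, against 1149.9 in no HCC, the highest value being in no HCC.

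**Figure D1:**
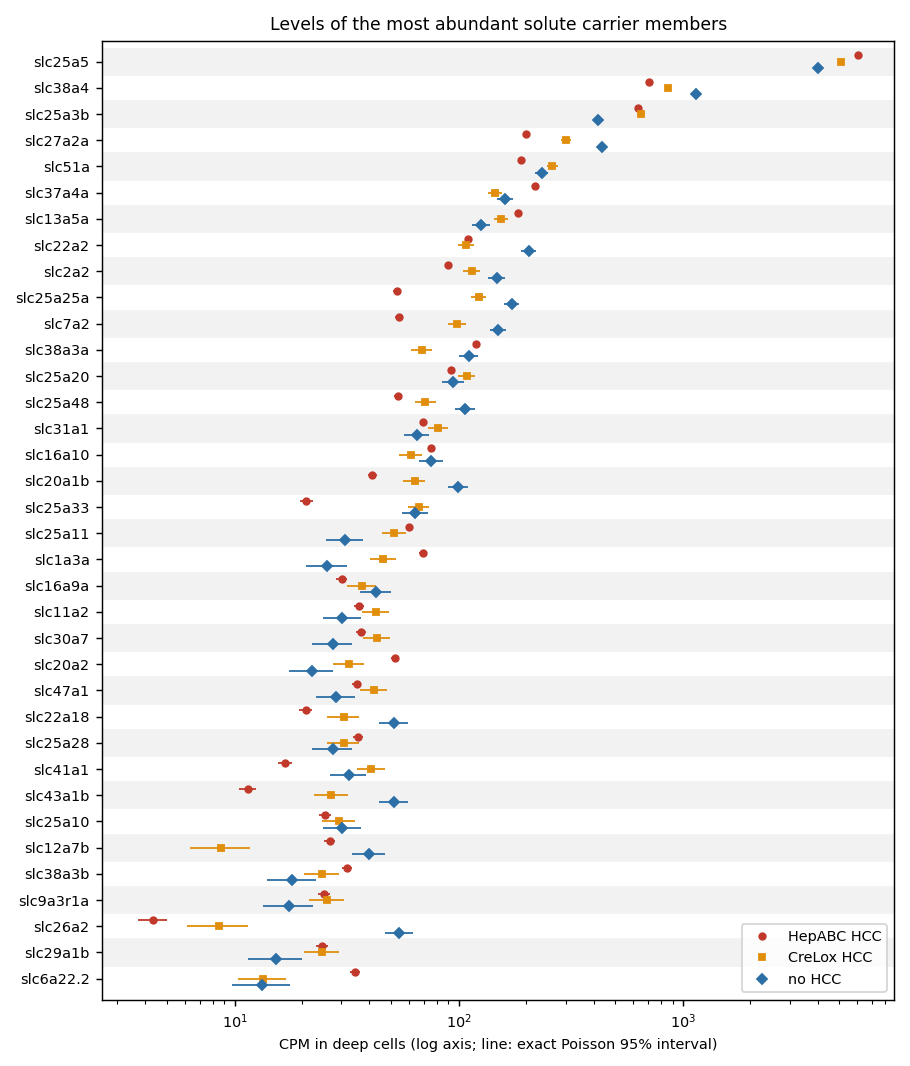
CPM (log axis) in deep cells of the 36 members that averaged 20 CPM or more, ordered by that average, with circles for HepABC HCC, squares for CreLox HCC, diamonds for no HCC and lines for the exact Poisson 95% interval. slc25a5 stands at 6052 CPM in HepABC, 5103 in CreLox and 3996 in no HCC, far above every other member, and slc26a2 has the widest spread, at 4.32 CPM in HepABC and 8.53 in CreLox, against 54.4 in no HCC.

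Summed by family, the mitochondrial carriers of slc25 came first with 7197 CPM in HepABC, 6424 CPM in CreLox and 5063 CPM in no HCC. Its ratio of 1.42 (1.40 to 1.44) for HepABC HCC over no HCC became 1.07 without slc25a5, at 1146 CPM in HepABC, 1321 in CreLox and 1067 in no HCC. The amino acid family slc38 followed with 885 CPM in HepABC and 989 in CreLox, against 1308 in no HCC, of which slc38a4 held 80.0% in HepABC, 86.5% in CreLox and 87.9% in no HCC. Fatty acid transporters of slc27 summed to 212 CPM in HepABC and 316 in CreLox, against 457 in no HCC. Organic ion transporters of slc22 summed to 152 CPM in HepABC, 158 in CreLox and 270.1 in no HCC. Both were highest in no HCC, and slc27 was lowest in HepABC HCC. For slc22 the ratio of HepABC HCC over CreLox HCC was 0.96, with an interval of 0.89 to 1.04 that includes 1. The slc7 family of cationic and neutral amino acid transporters had 69.0 CPM in HepABC and 110.1 in CreLox, against 155 in no HCC, a ratio of 0.44 (0.41 to 0.49) for HepABC HCC over no HCC. That order belonged to slc7a2, since the other 6 slc7 members summed to 15.1 CPM in HepABC, 11.6 in CreLox and 5.38 in no HCC, a ratio of 2.80. Most of that remainder in each library was slc7a6os, a row caught by its name alone and described below. The opposite order thus rested mostly on that row. Members of slc7 other than slc7a2 and slc7a6os were not summed by themselves, so their order is not given. In slc26 likewise the family had 20.6 CPM in HepABC and 20.7 in CreLox, against 60.3 in no HCC, while without slc26a2 it had 16.2 CPM in HepABC, 12.2 in CreLox and 5.95 in no HCC.

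**Figure D2:**
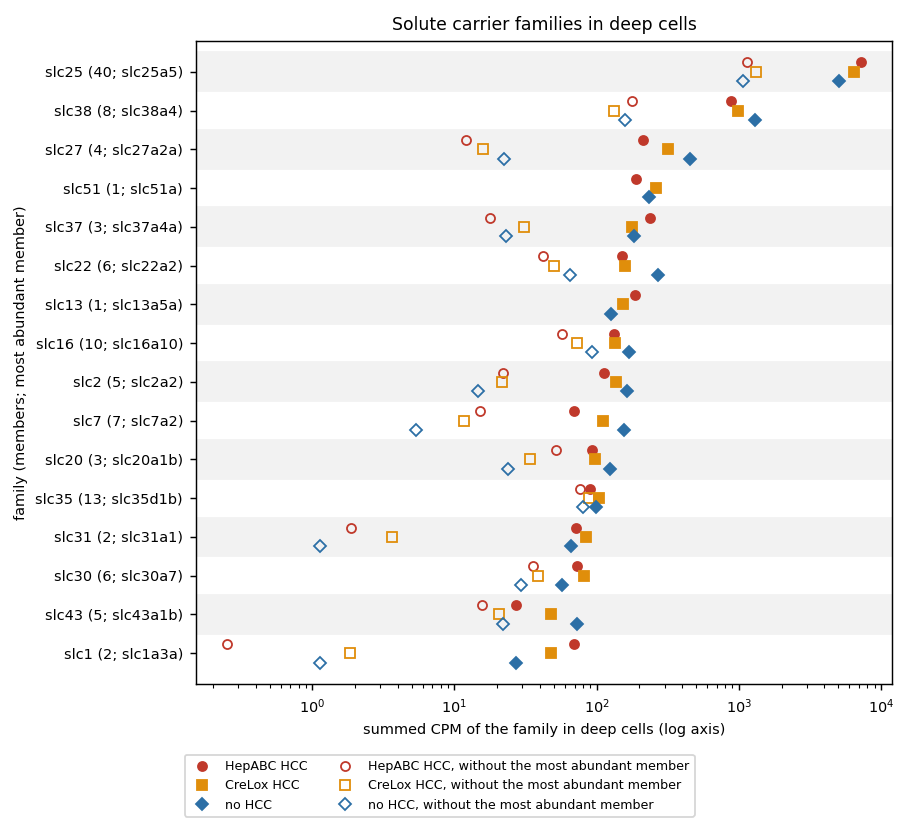
Summed CPM (log axis) in deep cells of the 16 families with the highest sums, as filled symbols, and the same sum without the most abundant member, as open symbols, for HepABC HCC (circles), CreLox HCC (squares) and no HCC (diamonds). In slc7 the filled symbols run 69.0 CPM in HepABC and 110.1 in CreLox, against 155 in no HCC, and the open ones 15.1 CPM in HepABC, 11.6 in CreLox and 5.38 in no HCC, the opposite order. Most of each open slc7 value was slc7a6os, a row caught by its name alone.

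Of the 176 members, 85 averaged at least 5 CPM over the libraries and were compared. A ratio of CPM of at least 2 or at most 0.5 is called higher or lower below. In HepABC HCC over no HCC, 14 members (16.5%) were higher and 17 (20%) lower, while of all rows compared 22.8% were higher and 9.32% lower. The median log2 ratio was 0.07 over the members and 0.36 over all rows. In CreLox HCC over no HCC, 13 members (15.3%) were higher and 4 (4.71%) lower, against 20.2% and 2.83% of all rows, with median log2 ratios of 0.16 for members and 0.48 for all rows. In HepABC HCC over CreLox HCC, 7 members (8.24%) were higher and 10 (11.8%) lower, against 6.49% and 12.9% of all rows, with medians of −0.26 and −0.10. The first 2 comparisons share the no HCC library. Every ratio below is best read beside the all-row median of its comparison, and every count of a transporter group beside these all-row shares, since the groups hold 1 to 21 compared members and were not tested.

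Scaling moved these splits. With TMM factors, which centre the bulk of rows, the all-row medians became 0.01 and −0.03 for the HCC libraries over no HCC, and those of the members −0.36 and −0.35. The members then split into 8 higher and 25 lower of 84 in HepABC HCC over no HCC, while 13.5% and 14.7% of all rows passed. In CreLox HCC over no HCC they split into 3 higher and 17 lower of 84, with 7.73% and 8.16% of all rows. Without mitochondrial genes and the 20 most abundant rows in the total, the split in CreLox HCC over no HCC was 13 higher and 9 lower of 102. Of all rows 14.4% and 4.83% then passed. The factors scale every ratio of a comparison alike, and they lower those over no HCC. Of the 14 members called higher in HepABC HCC over no HCC 10 stayed past 2-fold, as did 4 of the 13 in CreLox HCC over no HCC, and the 10 called lower in HepABC HCC over CreLox HCC kept their call. These counts exceed the 8 and 3 above because only the splits apply the limit of 5 CPM to the rescaled values.

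**Figure D3:**
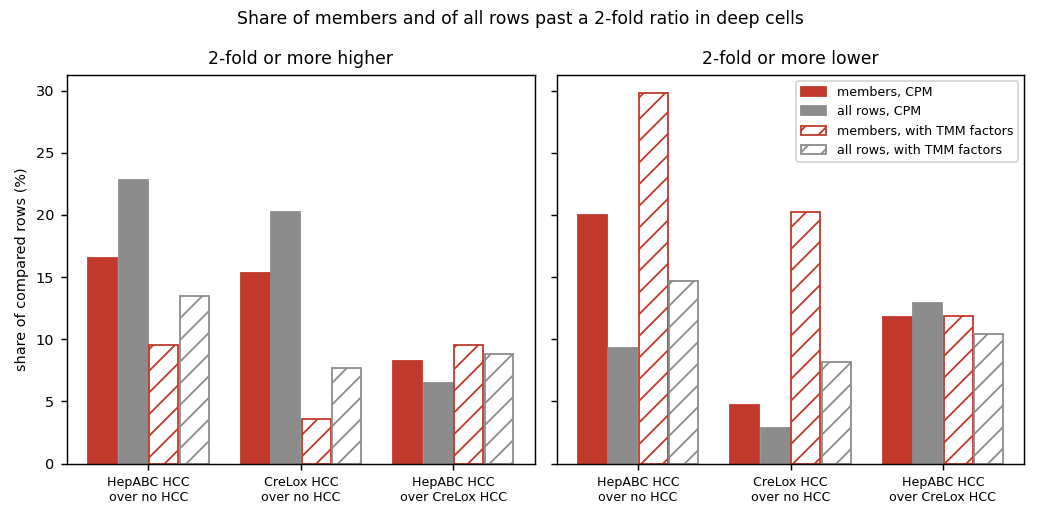
Share of compared rows (%) that were 2-fold or more higher (left) or lower (right) in each of the 3 comparisons, for members (red) and all rows (grey), on CPM (filled) and with TMM factors (hatched). In HepABC HCC over no HCC 20% of members and 9.32% of all rows were lower on CPM, and 29.8% and 14.7% with TMM factors.

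Among the 21 mitochondrial carriers compared, 3 were higher and 3 lower in HepABC HCC over no HCC, beside 22.8% and 9.32% of all rows. In CreLox HCC over no HCC 5 were higher and 1 was lower, beside 20.2% and 2.83% of all rows. slc25a5 had a ratio of 1.51 (1.49 to 1.54) in HepABC HCC over no HCC, log2 0.60, and of 1.28 (1.25 to 1.30) in CreLox HCC over no HCC, log2 0.35. With TMM factors the ratios over no HCC were 1.19 in HepABC and 0.90 in CreLox, so the direction in CreLox HCC depended on the scaling. The phosphate carrier slc25a3b, which supplies phosphate for ATP synthesis, had 634 CPM in HepABC and 654 in CreLox, against 417 in no HCC, and its ratios over no HCC of 1.52 in HepABC and 1.57 in CreLox stayed above 1 with TMM factors, at 1.20 in HepABC and 1.1 in CreLox. The carnitine/acylcarnitine carrier slc25a20, needed to burn fatty acids, had 92.3 CPM in HepABC, 109 in CreLox and 94.6 in no HCC, well inside 2-fold.

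Several carriers that take nucleotides or small metabolites into mitochondria stood apart between the libraries. slc25a25a, an ATP-magnesium/phosphate carrier, had 52.9 CPM in HepABC, 123 CPM in CreLox and 172 CPM in no HCC, a ratio of 0.31 (0.28 to 0.34) for HepABC HCC over no HCC and 0.43 (0.39 to 0.47) over CreLox HCC. Thinned to 10000 UMIs, deep cells held a UMI of it in 37.7% (35.6 to 39.9) of cells in HepABC, 59.1% (51.7 to 66.3) in CreLox and 76.1% (69.7 to 81.6) in no HCC, so the intervals of the 3 libraries did not overlap. Without thinning the shares were 58.6% in HepABC and 83.3% in CreLox, against 89.2% in no HCC. In shallow macrophage-marker cells, defined below, the share with a UMI was 6.38% in HepABC, 3.31% in CreLox and 19.6% in no HCC. The median depth of those cells was 2179.5 UMIs in HepABC, 1501 in CreLox and 1660.5 in no HCC, and that of deep cells 20802 UMIs in HepABC, 24906.5 in CreLox and 17048 in no HCC. Shares at such unlike depths do not compare levels. Scaled for depth, slc25a25a had 26.5 CPM in HepABC, 17.4 in CreLox and 132 in no HCC macrophage-marker cells. In no HCC that was 0.77 (0.51 to 1.11) of the deep-cell level. A different pattern belonged to slc25a33, a pyrimidine nucleotide carrier, which had 20.9 CPM in HepABC and 66.4 in CreLox, against 64.0 in no HCC and was thus low in HepABC HCC against both other libraries. slc25a36a, the other carrier known for pyrimidine nucleotides, had 20.1 CPM in HepABC, 3.25 in CreLox and 1.42 in no HCC and was high in HepABC HCC, with a ratio of 14.2 (6.07 to 43.9) over no HCC and 6.2 (3.80 to 10.9) over CreLox HCC. Its ratio of 2.30 in CreLox HCC over no HCC had an interval of 0.80 to 8.01, which includes 1.

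Heme and coenzyme carriers of the slc25 family also differed. slc25a38a, a glycine carrier needed for the first step of heme synthesis, had 5.19 CPM in HepABC and 6.91 in CreLox, against 26.3 in no HCC, ratios over no HCC of 0.20 (0.15 to 0.25) in HepABC and 0.26 (0.17 to 0.39) in CreLox. Of the red blood cell markers, hbba1 had 0.115 CPM in HepABC and 0.609 in CreLox, against 464 in no HCC deep cells. hbaa1 had 0.413 CPM in HepABC and 0.406 in CreLox, against 615 in no HCC, and alas2 had 0 in CreLox and 3.96 in no HCC. hemgn did not share that order, at 21.4 CPM in HepABC, 89.2 in CreLox and 71.4 in no HCC. Without the deep cells that held UMIs of hbba1, hbaa1 or alas2 the slc25a38a ratios over no HCC were 0.19 in HepABC and 0.26 in CreLox. The folate and FAD carrier slc25a32a had 19.1 CPM in HepABC and 23.2 in CreLox, against 9.06 in no HCC, higher in both HCC libraries. With TMM factors its ratios over no HCC were 1.66 in HepABC and 1.80 in CreLox, no longer past 2-fold. The coenzyme A carrier slc25a42 had 10.45 CPM in HepABC, 8.73 in CreLox and 4.53 in no HCC. Its ratio in HepABC HCC over no HCC was 2.31 (1.40 to 4.07), and 1.82 with TMM factors. slc25a40, of the glutathione carrier group, had 8.61 CPM in HepABC and 3.66 in CreLox, against 5.38 in no HCC and was higher in HepABC HCC over CreLox HCC. slc25a27, a relative of the uncoupling proteins, had 10.0 CPM in HepABC, 15.6 in CreLox and 5.38 in no HCC, and slc25a21, a carrier of oxodicarboxylates, had 5.19 CPM in HepABC and 8.12 in CreLox, against 3.96 in no HCC. Both were higher in CreLox HCC over no HCC, with ratios of 2.91 for slc25a27 and 2.05 for slc25a21.

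A pair of members whose values moved with depth was high in the CreLox HCC deep cells. slc25a55a had 4.55 CPM in HepABC, 29.2 CPM in CreLox and 6.51 CPM in no HCC, a ratio of 4.49 (2.88 to 7.31) for CreLox HCC over no HCC. slc3a2a, the heavy chain that brings several amino acid exchangers to the cell surface, had 9.35 CPM in HepABC, 32.1 in CreLox and 7.93 in no HCC, a ratio of 4.05 (2.70 to 6.29). Both values moved with the depth limit. Among cells with 20000 or more UMIs, of which no HCC had 46, the ratios for CreLox HCC over no HCC were 10.2 for slc25a55a and 8.16 for slc3a2a, and among cells with 5000 or more they were 2.49 and 2.89. Of the 7 macrophage markers 7 and of the 7 endothelial markers 6 were also highest in CreLox HCC deep cells, with c1qb at 3.24 CPM in HepABC and 13.4 in CreLox, against 1.42 in no HCC. In no HCC deep cells marco and 6 endothelial markers were at 0. Deep cells with no UMI of c1qb, ccl38.6 or tmem88a numbered 1806 in HepABC, 164 in CreLox and 202 in no HCC, and in them the ratios for CreLox HCC over no HCC were 3.68 for slc25a55a and 3.94 for slc3a2a.

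Of the 13 members of amino acid and peptide families compared, 4 were higher and 2 lower in HepABC HCC over no HCC, beside 22.8% and 9.32% of all rows. In CreLox HCC over no HCC 2 were higher and 0 lower, beside 20.2% and 2.83%. Groups follow the family number, so the 4 include slc7a6os, a row caught by its name alone and described below. slc38a4 had ratios over no HCC of 0.62 (0.60 to 0.64) in HepABC and 0.74 (0.71 to 0.78) in CreLox, short of 2-fold. With TMM factors they were 0.49 in HepABC, past 2-fold, and 0.52 in CreLox. slc38a3a, a glutamine transporter that mammals use in the hepatocytes around the central vein, had 119 CPM in HepABC and 68.4 in CreLox, against 111 in no HCC, lowest in CreLox HCC. Its ratio for CreLox HCC over no HCC was 0.62. slc7a2, the arginine and lysine transporter, had 53.9 CPM in HepABC, 98.5 CPM in CreLox and 150.1 CPM in no HCC, a ratio of 0.36 (0.33 to 0.40) for HepABC HCC over no HCC. slc43a1b, a facilitated transporter of branched-chain amino acids, had 11.4 CPM in HepABC, 27 in CreLox and 51.3 in no HCC, ratios of 0.22 (0.19 to 0.27) over no HCC and 0.42 (0.35 to 0.52) over CreLox HCC for HepABC HCC. In deep cells the value in CreLox HCC thus lay between those of the other libraries for both.

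Higher amino acid members included slc1a3a, a sodium-driven glutamate and aspartate transporter, with 69.1 CPM in HepABC, 45.9 CPM in CreLox and 25.8 CPM in no HCC. Its ratio was 2.68 (2.18 to 3.34) for HepABC HCC over no HCC and 1.78 (1.39 to 2.30) for CreLox HCC over no HCC. The slc6 member slc6a22.1 had 15.2 CPM in HepABC and 3.05 in CreLox, against 1.13 in no HCC, and slc6a22.2 had 34.6 CPM in HepABC, 13.4 in CreLox and 13.3 in no HCC. Both were highest in HepABC HCC, where the ratios of slc6a22.1 were 13.4 (5.22 to 49.4) over no HCC and 4.99 over CreLox HCC, and those of slc6a22.2 were 2.60 over no HCC and 2.58 over CreLox HCC. slc6a22.1 passed 2-fold in CreLox HCC over no HCC as well, but with 15 UMIs in CreLox and 4 in no HCC and an interval of 0.86 to 11.1. Reads of such close copies may be split between them by the counting.

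Of the 3 fatty acid transporters compared, 2 were lower in HepABC HCC over no HCC, beside 9.32% of all rows. In CreLox HCC over no HCC 1 was lower, beside 2.83% of all rows. slc27a2a, which takes up and activates long and very long fatty acids in the liver, had 200.4 CPM in HepABC and 300.0 in CreLox, against 435 in no HCC, ratios over no HCC of 0.46 (0.44 to 0.49) in HepABC and 0.69 (0.64 to 0.74) in CreLox. slc27a6 had 2.2 CPM in HepABC, 3.25 in CreLox and 14.2 in no HCC, ratios over no HCC of 0.16 (0.11 to 0.22) in HepABC and 0.23 (0.12 to 0.41) in CreLox. The third, slc27a1a, had 9.78 CPM in HepABC and 12.2 in CreLox, against 8.21 in no HCC, and its intervals in the 3 libraries overlapped.

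Of 5 sugar transporters compared, 0 were higher and 1 was lower in HepABC HCC over no HCC, beside 22.8% and 9.32% of all rows, and 0 passed in either direction in CreLox HCC over no HCC. slc2a2, the glucose transporter through which hepatocytes take up and release glucose, had 89.9 CPM in HepABC, 114 in CreLox and 148 in no HCC, ratios over no HCC of 0.61 (0.56 to 0.67) in HepABC and 0.78 (0.69 to 0.87) in CreLox. With TMM factors they were 0.48 in HepABC, past 2-fold, and 0.55 in CreLox. slc37a4a, which brings glucose-6-phosphate into the endoplasmic reticulum for glucose release, had 219 CPM in HepABC and 146 in CreLox, against 161 in no HCC, highest in HepABC HCC. The lower member was slc37a1, a related sugar phosphate exchanger, with 2.92 CPM in HepABC, 9.14 in CreLox and 8.78 in no HCC, lowest in HepABC HCC. The 5 monocarboxylate members compared, which carry lactate, ketone bodies or aromatic amino acids, had a median log2 ratio of −0.60 in HepABC HCC over no HCC and −0.48 in CreLox HCC over no HCC. slc16a4, with 7.49 CPM in HepABC and 10.6 in CreLox, against 16.4 in no HCC, and slc16a6b, with 4.16 CPM in HepABC, 6.30 in CreLox and 8.78 in no HCC, were lower in HepABC HCC over no HCC. The most abundant of them, slc16a10, a transporter of aromatic amino acids, was level on CPM between HepABC HCC and no HCC, with 75.5 CPM in HepABC and 61.1 in CreLox, against 75.6 in no HCC. With TMM factors its ratio for HepABC HCC over no HCC was 0.79.

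Of 6 organic ion and bile acid members compared, 1 was lower in HepABC HCC over no HCC, beside 9.32% of all rows. In CreLox HCC over no HCC 1 was higher, beside 20.2% of all rows. slc22a2, an organic cation transporter, had 109.5 CPM in HepABC, 108 in CreLox and 205 in no HCC, ratios over no HCC of 0.53 (0.49 to 0.58) in HepABC and 0.53 (0.47 to 0.59) in CreLox, just inside 2-fold. With TMM factors they were 0.42 in HepABC and 0.37 in CreLox, both past 2-fold. The steroid and bile acid exporter subunit slc51a had 189 CPM in HepABC and 262 in CreLox, against 234 in no HCC, highest in CreLox HCC. Its ratio of 1.12 for CreLox HCC over no HCC became 0.79 with TMM factors, so that rank depended on the scaling. slc13a5a, the plasma membrane citrate transporter, had 185 CPM in HepABC, 154 in CreLox and 126 in no HCC, highest in HepABC HCC. slc22a18, an organic cation transporter by sequence, had 20.8 CPM in HepABC and 30.7 in CreLox, against 51.3 in no HCC, a ratio of 0.41 (0.34 to 0.48) for HepABC HCC over no HCC. slc10a3, an orphan of the bile acid transporter family, was the higher member in CreLox HCC, with 7.97 CPM in HepABC, 13.2 in CreLox and 5.38 in no HCC. Its ratio there was 2.45 in deep cells and 6.12 among cells with 20000 or more UMIs. slc10a1, the bile salt importer of mammalian hepatocytes, and slc27a2b are not members.

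Of 6 zinc and manganese transporters 1 was higher and 1 lower in HepABC HCC over no HCC, and of 5 iron, copper, magnesium and heme transporters 2 were higher, while 22.8% of all rows were higher and 9.32% lower. In CreLox HCC over no HCC 1 of each metal group was higher, with 20.2% of all rows. slc40a1, ferroportin, the iron exporter, had 24.4 CPM in HepABC (1064 UMIs in 595 of 1938 cells) and 6.30 CPM in CreLox, against 3.40 CPM in no HCC. Its ratio for HepABC HCC was 7.19 (4.10 to 14.0) over no HCC and 3.88 (2.72 to 5.74) over CreLox HCC. Macrophages express it too. The 7 macrophage markers summed to 41.1 CPM in HepABC and 42.2 CPM in no HCC deep cells. Of these, cd74a made up 27.7 CPM in HepABC and 35.1 CPM in no HCC. mpeg1.1 was also lower in HepABC, at 0.643 CPM against 1.42 in no HCC. c1qb, c1qc and grn1 were higher in HepABC, at 3.24, 3.28 and 4.25 CPM against 1.42, 1.70 and 1.42 CPM in no HCC. c1qa had 1.31 CPM in HepABC and 1.13 in no HCC, and marco had 0.597 and 0. Without deep cells holding UMIs of c1qb, ccl38.6 or tmem88a the slc40a1 ratios for HepABC HCC were 7.38 over no HCC and 4.55 over CreLox HCC. Among cells with 5000 or more UMIs the ratio of HepABC HCC over CreLox HCC was 2.04. slc48a1b, a heme transporter of endosomes and lysosomes, had 7.21 CPM in HepABC and 5.89 in CreLox, against 2.27 in no HCC, and slc30a1a, which exports zinc across the plasma membrane, had 11.1 CPM in HepABC, 11.2 in CreLox and 3.96 in no HCC. Both were higher in both HCC libraries, with ratios over no HCC of 3.18 in HepABC and 2.60 in CreLox for slc48a1b, and of 2.79 in HepABC and 2.82 in CreLox for slc30a1a. The macrophage marker c1qb was also higher in both HCC libraries, at 3.24 CPM in HepABC and 13.4 in CreLox, against 1.42 in no HCC deep cells. Another macrophage marker, mpeg1.1, had 0.643 CPM in HepABC, 4.06 in CreLox and 1.42 in no HCC. Whether macrophage RNA entered the deep-cell values of slc40a1, slc48a1b or slc30a1a was not tested. In deep cells with no UMI of c1qb, ccl38.6 or tmem88a the ratios over no HCC were 3.34 in HepABC and 2.44 in CreLox for slc48a1b, and 2.56 in HepABC and 2.38 in CreLox for slc30a1a. slc30a4, a zinc transporter of vesicles, had the opposite order, with 6.36 CPM in HepABC and 11 in CreLox, against 15.3 in no HCC. slc41a1, a magnesium transporter, had 16.8 CPM in HepABC, 40.8 in CreLox and 32.3 in no HCC, lowest in HepABC HCC. The copper importer slc31a1 had 69.6 CPM in HepABC and 80.8 in CreLox, against 65.1 in no HCC, and its ratio of 1.24 (1.05 to 1.47) in CreLox HCC over no HCC was well inside 2-fold. With TMM factors that ratio was 0.87, so its direction depended on the scaling.

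The lowest and the highest called ratios over no HCC belonged to the inorganic ion transporters slc26a2 and slc26a3.2. Of the 9 members of inorganic ion families compared, 2 were higher and 3 lower in HepABC HCC over no HCC, beside 22.8% and 9.32% of all rows. In CreLox HCC over no HCC 1 was higher and 2 were lower, beside 20.2% and 2.83% of all rows. Since groups follow the family number, the 9 include the scaffold slc9a3r1a, described below and called in neither comparison. slc26a2, a sulfate transporter whose sulfate goes into glycosaminoglycans, had 4.32 CPM in HepABC, 8.53 CPM in CreLox and 54.4 CPM in no HCC. These are ratios over no HCC of 0.08 (0.06 to 0.10) in HepABC and 0.16 (0.11 to 0.22) in CreLox, and the CPM interval of no HCC, 46.9 to 62.6, lay far above those of both HCC libraries. Thinned deep cells held a UMI of it in 3.92% (3.10 to 4.88) of cells in HepABC, 8.06% (4.58 to 13.0) in CreLox and 39.4% (32.8 to 46.3) in no HCC, and unthinned ones in 8.98% in HepABC, 19.4% in CreLox and 58.7% in no HCC. Of the macrophage-marker cells, far shallower as given above, 0 of 188 held one in HepABC and 0 of 151 in CreLox, against 2 of 112 in no HCC. slc26a3.2, named for a chloride and bicarbonate exchanger, went the other way with 549 UMIs in HepABC and 12 in CreLox, against 1 in no HCC, or 12.6 CPM in HepABC, 2.44 in CreLox and 0.283 in no HCC. Its ratio of 44.5 for HepABC HCC over no HCC therefore had an interval of 7.96 to 1762, and that of 8.61 for CreLox HCC over no HCC one of 1.27 to 368. Over CreLox HCC the ratio in HepABC HCC was 5.17 (2.94 to 10.1).

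Further ion transporters were set by 1 library. slc12a7b, a potassium and chloride cotransporter, had 26.6 CPM in HepABC and 8.73 in CreLox, against 39.6 in no HCC. It was lowest in CreLox HCC, with a ratio of 0.22 (0.15 to 0.31) over no HCC there and of 3.05 (2.25 to 4.24) for HepABC HCC over CreLox HCC. The phosphate importers slc20a1b and slc20a2 ran in opposite orders, with 41.2 CPM in HepABC, 63.6 in CreLox and 99.4 in no HCC for slc20a1b, and 51.9 CPM in HepABC and 32.3 in CreLox, against 22.1 in no HCC, for slc20a2. In HepABC HCC over no HCC the ratio was 0.41 (0.37 to 0.47) for slc20a1b and 2.35 (1.87 to 2.98) for slc20a2, and their sum with slc20a1a was 93.3 CPM in HepABC, 97.5 in CreLox and 123 in no HCC. slc26a5 had 2.82 CPM in HepABC and 9.34 in CreLox, against 5.66 in no HCC and was lowest in HepABC HCC.

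The slc35 family brings nucleotide sugars and nucleotides into the Golgi and endoplasmic reticulum. Of its 7 members compared, 1 was higher and 2 lower in HepABC HCC over no HCC, beside 22.8% and 9.32% of all rows. In CreLox HCC over no HCC 1 was higher and 0 lower, beside 20.2% and 2.83% of all rows. slc35b1, which brings ATP into the endoplasmic reticulum, had 2.43 CPM in HepABC, 13.6 CPM in CreLox and 14.2 CPM in no HCC. Its ratio was 0.17 (0.12 to 0.25) for HepABC HCC over no HCC and 0.96 (0.66 to 1.42) for CreLox HCC over no HCC, so HepABC HCC lay below both other libraries. slc35b4, a carrier of UDP-xylose and UDP-N-acetylglucosamine, had 3.54 CPM in HepABC, 8.33 in CreLox and 13.0 in no HCC, and slc35a4, of the same family, had 17.3 CPM in HepABC and 18.3 in CreLox, against 7.93 in no HCC. The family sum nevertheless was close, at 89.98 CPM in HepABC, 105 in CreLox and 99.7 in no HCC. slc17a9b, which loads ATP into vesicles, had 20.2 CPM in HepABC and 11.2 in CreLox, against 3.96 in no HCC, ratios over no HCC of 5.10 (3.02 to 9.36) in HepABC and 2.82 (1.55 to 5.49) in CreLox, and the nucleoside transporter slc29a1b had 24.6 CPM in HepABC, 24.6 in CreLox and 15.3 in no HCC.

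**Figure D4:**
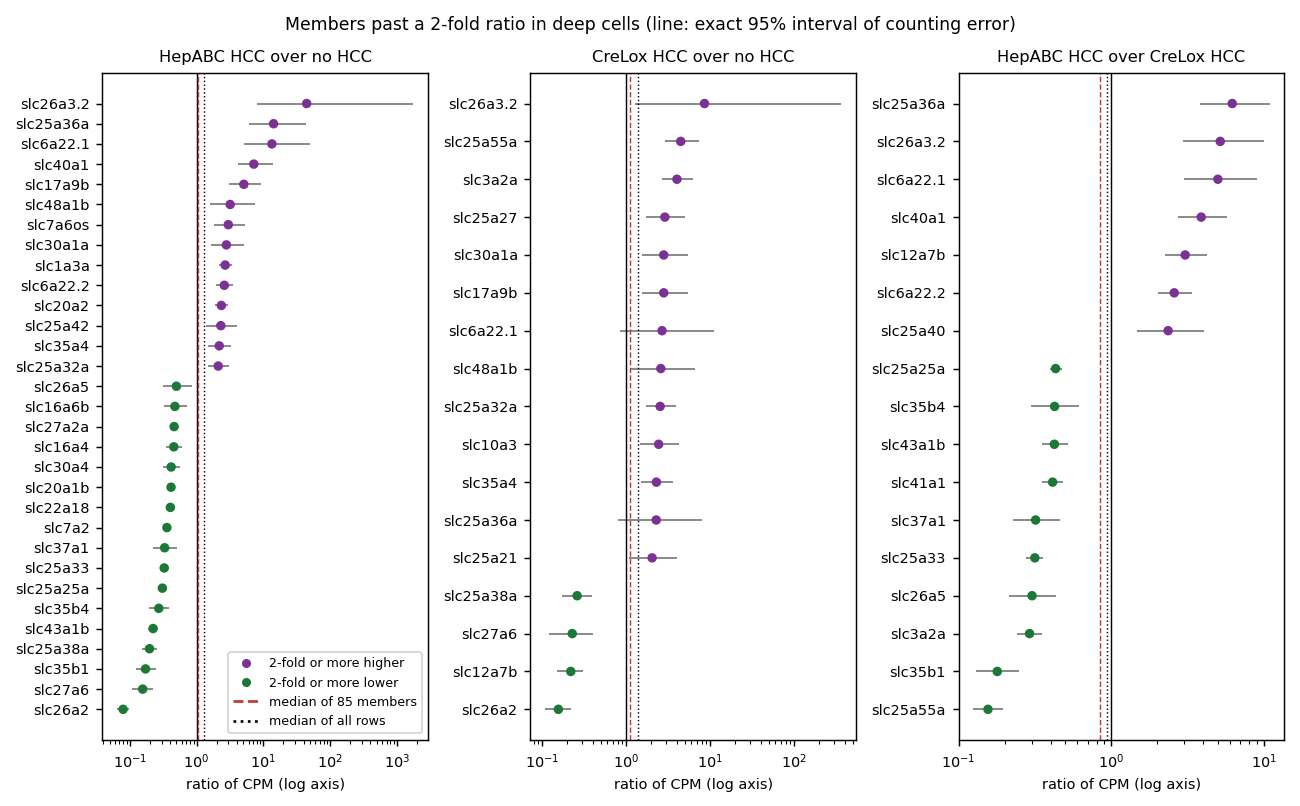
Ratio of CPM (log axis) in deep cells, with its exact 95% interval of counting error, for every member called higher (purple) or lower (green) in each comparison. The dashed red line is the median of the 85 members and the dotted black line that of all rows; slc26a3.2 has the widest interval, 7.96 to 1762, and slc26a2 the lowest ratio, 0.08 in HepABC HCC over no HCC.

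Depth of the cells bore on several of these values. In HepABC HCC over no HCC, taking only cells with 20000 or more UMIs brought slc26a3.2 to 11.9, slc25a36a to 6.57 and slc6a22.1 to 7.21, all still past 2-fold, while slc25a32a at 1.96 and slc35a4 at 1.83 no longer passed. slc27a6 then was 0.24 and slc30a1a 5.52. In CreLox HCC over no HCC the same limit brought slc26a3.2 to 2.64, slc25a36a to 1.12, slc6a22.1 to 1.56, slc48a1b to 1.60 and slc35a4 to 1.63, so the last 4 were no longer past 2-fold. slc30a1a was 5.28 there and slc27a6 0.37. At this depth HepABC had 1044 cells, CreLox 126 and no HCC 46. Some orders differed in cells under 5000 UMIs without c1qb, ccl38.6 and tmem88a. There slc7a2 had 77.4 CPM in HepABC, 34.5 in CreLox and 67.3 in no HCC. In the same sequence slc2a2 had 84.1, 61.5 and 58.0 CPM, and slc38a4 681, 249 and 417 CPM. The HepABC and no HCC intervals overlapped for slc7a2 and slc2a2. The deep-cell order was kept by slc27a2a, at 202, 233 and 296 CPM, and slc22a2, at 89.2, 84.2 and 105 CPM.

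Zebrafish often hold an a and a b copy of a gene that mammals have once. Such a pair was listed as members for 15 names, and in 10 of them only 1 copy reached the limit of 5 CPM. For slc3a2 that copy was slc3a2a, with slc3a2b at 1 UMI in HepABC HCC and 0 in the other deep cells. For slc43a1 it was slc43a1b, with slc43a1a at 2.92 CPM in HepABC and 3.05 in CreLox, against 0.849 in no HCC. Both copies were compared for slc38a3 and slc35d1. slc38a3b had 31.8 CPM in HepABC, 24.6 in CreLox and 18.1 in no HCC, highest in HepABC HCC, and slc38a3a 119 CPM in HepABC and 68.4 in CreLox, against 111 in no HCC, lowest in CreLox HCC. slc35d1b had 13.0 CPM in HepABC, 15.6 in CreLox and 20.1 in no HCC and slc35d1a 5.97 CPM in HepABC and 7.31 in CreLox, against 7.36 in no HCC. Counting may split reads of similar copies, so these values carry that limit.

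Rows caught by their name alone were kept, and those among the named members are given here. slc9a3r1a, a scaffold protein that binds transporters, had 25 CPM in HepABC, 25.8 in CreLox and 17.6 in no HCC. slc7a6os, named for lying opposite slc7a6, had 13.5 CPM in HepABC and 8.12 in CreLox, against 4.53 in no HCC, a ratio of 2.99 (1.82 to 5.26) for HepABC HCC over no HCC. The strand use in the counting is not stated in the sources used here, and whether reads of an overlapping gene entered its count was not checked.

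The 91 members under 5 CPM were not compared. Of these, 54 averaged 1 to 5 CPM and 37 under 1 CPM. Deep cells held no UMI of 1 member in HepABC, whose total was the largest, against 8 members in CreLox and 20 in no HCC. A count of 0 in no HCC deep cells allows up to 0.849 CPM, by the limit of 3 counts. slc12a8 was the most frequent of the 20, with 188 UMIs (4.32 CPM) in HepABC and 3 UMIs in CreLox, against 0 in no HCC. It was at least 5.08-fold higher in HepABC HCC against that limit, a member singled out after its values were seen.

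Transporters outside the slc names were taken by their own names for comparison. The 29 such rows compared belong to the slco, ABC, mitochondrial pyruvate carrier, porin, sideroflexin, aquaporin and sodium pump genes. Of these, 4 were higher and 4 lower in HepABC HCC over no HCC, beside 22.8% and 9.32% of all rows. In CreLox HCC over no HCC 5 were higher and 1 lower, beside 20.2% and 2.83% of all rows. The outer membrane porin vdac2, the partner of slc25a5 in nucleotide exchange, had 423 CPM in HepABC, 439 in CreLox and 253 in no HCC, ratios over no HCC of 1.67 in HepABC and 1.73 in CreLox. The bile salt export pump abcb11b had 131 CPM in HepABC and 129 in CreLox, against 203 in no HCC, ratios over no HCC of 0.65 in HepABC and 0.64 in CreLox. The cholesterol exporter abca1b had 19.3 CPM in HepABC, 9.14 in CreLox and 1.13 in no HCC. The aquaporin aqp8a.1 stood out in CreLox HCC with 2.09 CPM in HepABC and 40.2 in CreLox, against 1.98 in no HCC, while aqp1a.1 was low in HepABC HCC with 1.93 CPM in HepABC, 25 in CreLox and 22.1 in no HCC.

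Members outside the hepatocytes were looked for in shallow cells, those under 5000 UMIs, that held a UMI of exactly 1 of c1qb (macrophages), ccl38.6 (lymphocytes) or tmem88a (endothelium). HepABC had 188 c1qb cells, 76 ccl38.6 cells and 24 tmem88a cells, CreLox had 151, 227 and 54, and no HCC had 112, 206 and 55. A member was assigned to a class if its CPM there was at least 4 times that of deep cells in both CreLox HCC and no HCC, with at least 10 UMIs over these libraries together, so these folds are a description. HepABC HCC was not used to choose. Counts of chosen members that pass 4-fold there too are given without the same share over all chosen rows. They therefore do not set the members apart from other rows. Hepatocyte RNA was present in every class, with hepatocyte markers summing to 22247 CPM in HepABC, 35141 in CreLox and 37635 in no HCC in c1qb cells. Whether it was free RNA or came from cells captured together was not tested. slc38a4 for example had 115 CPM in HepABC and 163 in CreLox, against 150 in no HCC, in c1qb cells, and slc2a2 had 15.5 CPM in HepABC, 24.3 in CreLox and 54.5 in no HCC.

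In c1qb cells 16 of 49 members with enough UMIs passed (32.7%), near the 29.3% of all rows, and 15 of the 16 were at least 4 times higher in c1qb than in deep cells of HepABC HCC as well. The exception was slc38a7, a glutamine transporter of lysosomes, with 4.42 CPM in c1qb cells and 2.11 CPM in deep cells of HepABC HCC. slc3a2a had 769 CPM in HepABC, 448 in CreLox and 445 in no HCC c1qb cells, while deep cells had 9.35 CPM in HepABC, 32.1 in CreLox and 7.93 in no HCC. slc7a7, a light chain that pairs with slc3a2 to exchange cationic and neutral amino acids, had 265 CPM in HepABC, 246 in CreLox and 173 in no HCC c1qb cells, while deep cells had 0.138 CPM in HepABC, 1.02 in CreLox and 0 in no HCC. Both partners of this exchanger were thus highest in the c1qb cells. slc40a1 had 373 CPM in HepABC, 711 in CreLox and 204 in no HCC c1qb cells, far above its deep-cell levels given before. With it came slc48a1b at 57.4 CPM in HepABC and 34.7 in CreLox, against 9.08 in no HCC, and slc30a1a at 166 CPM in HepABC, 180 in CreLox and 68.1 in no HCC. In no HCC the value of slc48a1b rested on 2 UMIs and lay below the 11 CPM of shallow cells without any of the markers. slc22a21, of the organic cation and carnitine family, had 356 CPM in HepABC and 465 in CreLox, against 459 in no HCC, there, and 6.73 CPM in HepABC, 0.842 in CreLox and 11 in no HCC in shallow cells without any of the markers.

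Lysosomal and other amino acid transporters were also found in c1qb cells. slc15a4, which exports histidine and small peptides from lysosomes, had 183 CPM in HepABC, 156 in CreLox and 45.4 in no HCC c1qb cells, while deep cells had 3.95 CPM in HepABC, 2.03 in CreLox and 1.13 in no HCC. slc43a2b, a neutral amino acid transporter, had 83.9 CPM in HepABC and 83.3 in CreLox, against 68.1 in no HCC, and 0 UMIs in ccl38.6 and tmem88a cells of all 3 libraries. slc37a2, a sugar phosphate exchanger known from mammalian macrophages, had 99.4 CPM in HepABC, 295 in CreLox and 273 in no HCC, and the zinc importer slc39a1 had 61.8 CPM in HepABC and 76.3 in CreLox, against 54.5 in no HCC. slc35f6, slc38a6, slc45a4 and slc7a8a completed the class together with slc44a2.

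In ccl38.6 cells 10 of 46 members passed (21.7%), below the 31.2% of all rows, and 4 of the 10 were also at least 4 times higher in HepABC HCC. slc44a2, a choline transporter, had 102 CPM in HepABC, 149 in CreLox and 129 in no HCC, and it was the only member assigned to all 3 classes, with 72.9 CPM in HepABC and 62.5 in CreLox, against 95.4 in no HCC, in c1qb cells and 149 CPM in HepABC, 147 in CreLox and 283 in no HCC in tmem88a cells. slc9a3r1a had 46.2 CPM in HepABC and 139 in CreLox, against 81.7 in no HCC, in ccl38.6 cells. slc6a14, a broad amino acid importer, had 36.9 CPM in HepABC, 25.2 in CreLox and 6.81 in no HCC, and slc9a7, a sodium and proton exchanger of the Golgi, had 0 CPM in HepABC and 15.1 in CreLox, against 30.6 in no HCC. The other members were slc16a8, slc25a14, slc25a16, slc27a4, slc38a5b and slc7a7, of which only slc38a5b exceeded 40 CPM in any library, at 46.2 CPM in HepABC, 27.8 in CreLox and 44.3 in no HCC. In the 76 ccl38.6 cells of HepABC HCC 1 UMI was worth 9.24 CPM, which bounds what could be seen there.

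In tmem88a cells 7 of 23 members passed (30.4%), against 37.5% of all rows, and 6 of the 7 were at least 4 times higher in HepABC HCC too. With 24 such cells 1 UMI was worth 21.2 CPM there, and slc20a1a and slc25a24 passed on 1 UMI each and slc25a55a on 2 UMIs. slc38a5b, a glutamine transporter, had 212 CPM in HepABC and 89.6 in CreLox, against 141 in no HCC, slc25a43 had 170.0 CPM in HepABC, 24.4 in CreLox and 55.3 in no HCC, and slc25a24, an ATP-magnesium/phosphate carrier, had 21.2 CPM in HepABC and 32.6 in CreLox, against 55.3 in no HCC. The phosphate importer slc20a1a had 21.2 CPM in HepABC, 57.0 in CreLox and 67.6 in no HCC tmem88a cells and 0.230 CPM in HepABC, 1.62 in CreLox and 1.70 in no HCC deep cells, while its relatives slc20a1b and slc20a2 were compared in deep cells above. slc20a1a was also at 275 CPM in CreLox and 189 CPM in no HCC in shallow cells with alas2, a red blood cell marker. These values rested on 4 UMIs in 3 of 12 cells in CreLox and 7 UMIs in 7 of 27 cells in no HCC. slc25a55a had 42.4 CPM in HepABC, 147 in CreLox and 123 in no HCC in tmem88a cells and 25.2 CPM in HepABC and 56.4 in CreLox, against 42.3 in no HCC, in shallow cells without the markers, so all shallow classes were above the deep cells for it. slc48a1b was the member that missed 4-fold in HepABC HCC, with 21.2 CPM in tmem88a cells against 7.21 CPM in deep cells.

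**Figure D5:**
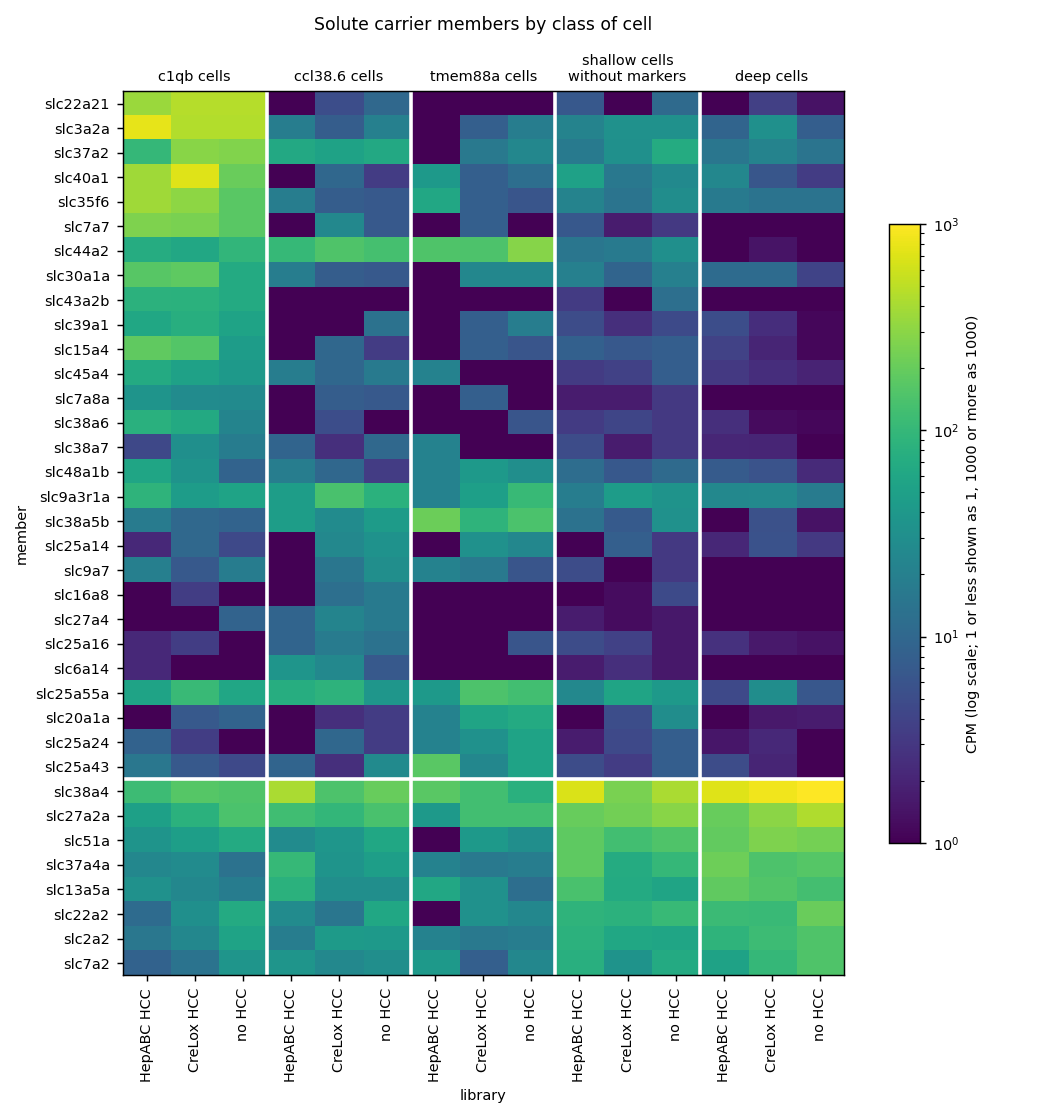
CPM (colour, log scale from 1 to 1000) of the 28 members assigned to marker classes, above the white line, and of 8 abundant hepatocyte members, below it, in c1qb, ccl38.6 and tmem88a cells, shallow cells without the markers and deep cells of HepABC HCC, CreLox HCC and no HCC. slc40a1 is bright in c1qb cells (373 CPM in HepABC, 711 in CreLox and 204 in no HCC) and dim in deep cells (24.4 CPM in HepABC and 6.30 in CreLox, against 3.40 in no HCC), and slc38a4 has the opposite pattern.

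Of the 28 members assigned to at least 1 class, 20 averaged under 5 CPM in deep cells and so took no part in the comparison of deep cells. The remaining 8 included slc3a2a, slc40a1, slc30a1a, slc48a1b and slc25a55a. Their levels between the libraries differed in the macrophage class as well. slc3a2a, lower in HepABC HCC than in CreLox HCC in deep cells, was at 769 CPM in HepABC HCC c1qb cells, while those of CreLox HCC had 448 CPM and those of no HCC 445 CPM. slc40a1, highest in HepABC HCC among deep cells, was at 373 CPM in HepABC HCC c1qb cells and 711 CPM in those of CreLox HCC. The order of the libraries in deep cells and in c1qb cells was thus not the same for either gene. It was the same for slc48a1b, at 57.4 CPM in HepABC, 34.7 in CreLox and 9.08 in no HCC c1qb cells. The same held for slc30a1a, at 166 CPM in HepABC, 180 in CreLox and 68.1 in no HCC c1qb cells. For both genes the c1qb intervals of HepABC and CreLox overlapped, so their rank there is not settled. Deep cells had slc30a1a at 11.1 CPM in HepABC and 11.2 in CreLox, nearly equal. The no HCC c1qb value of slc48a1b rested on 2 UMIs. Whether macrophage RNA set the deep-cell values was not tested.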

How the data were processed

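Livers of 3 zebrafish were profiled by droplet single-cell RNA sequencing with 3′ chemistry, 1 library per group. The deposited values are unnormalized UMI counts. The authors, by their methods and processing notes, used Cell Ranger 2.2.0 with GRCz11 and separated cells from empty droplets with EmptyDrops. They counted HepABC HCC against a reference that lacked EBFP. Each library lists its own rows, by a rule not given in the sources used here. Free RNA was not removed and doublets were not removed here.

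UMIs were summed over cells with 10000 or more UMIs and divided by their total, as CPM, with exact Poisson intervals at the 95% level. Ratios have exact conditional intervals. Rows with a mean of 5 CPM over the 3 libraries were compared, and a ratio of 2 or 0.5 was called. A library at 0 UMIs was set to 3 counts and the ratio taken as a bound. No test across groups was made. Shares of cells were thinned to 10000 UMIs and have Clopper-Pearson intervals. Ratio intervals were tested on simulated data.

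Named members were the 15 most abundant, up to 12 per direction and comparison, up to 12 per marker class, the leading member of 8 families and a list of liver transporters. Other members named were chosen after their values were seen. Members and lists were chosen with earlier results of these data known. A gene name table paired 35 members with 1 identifier each, so none is printed, and no sequence or coordinate is given. Alternatives were other depth limits, TMM factors (edgeR 4.0.16), other totals, folds and CPM limits, and other cells left out. Leaving out cells with red blood cell RNA was added after the data were seen. Python 3.11.15, numpy 2.4.6, scipy 1.17.1 and pandas 2.3.3 were used.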

Additional observations from a re-analysis of the deposited data

Results flagged for a closer look

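slc29a4, a transporter of monoamines and nucleosides, was listed in the HCC libraries and not in no HCC, so it was outside the comparisons. It had 21.6 CPM (20.3 to 23.1, 942 UMIs) in HepABC HCC deep cells and 24.4 CPM (20.2 to 29.1, 120 UMIs) in CreLox HCC deep cells. Its level in no HCC was not analysed here.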

How the results depend on the processing

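With 1 library per group no replicate could be left out, and no paired analysis was possible because each group has 1 library. In the main setting HepABC HCC over no HCC had 14 members higher and 17 lower, CreLox HCC over no HCC 13 and 4, and HepABC HCC over CreLox HCC 7 and 10. With TMM factors 8 of 84 members were higher in HepABC HCC over no HCC, beside 13.5% of all rows. In CreLox HCC over no HCC 3 were then higher and 17 lower of 84, beside 7.73% and 8.16%. With totals that left out mitochondrial genes and the 20 most abundant rows, 102 members were compared. Of these 9 were lower in CreLox HCC over no HCC, beside 4.83% of all rows, and 11 higher in HepABC HCC over CreLox HCC, beside 7.98%. A fold of 3 left 6 higher and 9 lower in HepABC HCC over no HCC, beside 9.58% and 4.85% of all rows. It left 3 higher in CreLox HCC over no HCC, beside 7.19%, and 6 lower in HepABC HCC over CreLox HCC, beside 6.42%. A limit of 10 CPM left 7 members higher in HepABC HCC over no HCC, 6 in CreLox HCC over no HCC and 3 in HepABC HCC over CreLox HCC, of 59 compared, beside 19.8%, 16.6% and 5.67% of all rows in the same comparisons. Without a limit on CPM 40 were higher and 34 lower in HepABC HCC over no HCC, 37 and 10 in CreLox HCC over no HCC, and 19 and 33 in HepABC HCC over CreLox HCC, with 156 to 168 members compared. Of all rows 28.4% were then higher and 12.7% lower in HepABC HCC over no HCC, 29.4% and 5.16% in CreLox HCC over no HCC, and 10.7% and 21.7% in HepABC HCC over CreLox HCC. With an upper limit of 3000 UMIs on shallow cells 3 of 10 members with enough UMIs were assigned to tmem88a cells, in place of 7 of 23, and 527 of 1465 rows passed. The slc7 family in HepABC HCC over no HCC had a ratio of 0.44, and of 2.80 without slc7a2, so its direction rested on that member. The slc7 remainder was mostly slc7a6os, a row caught by its name alone. Of the ratios of named members under other settings 1035 stayed within the counting interval, 141 moved beyond it and 0 of the called ones changed direction. Counting limits the members with few UMIs, and the no HCC and CreLox HCC deep cells, 213 and 186, set the width of nearly every interval. The causes of the moved values were not tested.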
